A study of Arabidopsis thaliana with 38 samples.

Results

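The 6 Arabidopsis *VARIANT IN METHYLATION* (*VIM*) genes were followed in RNA-seq of seeds and endosperm with and without the *vel3-1* allele. They are *VIM1* (AT1G57820), *VIM2* (AT1G66050), *VIM3* (AT5G39550), *VIM4* (AT1G66040), *VIM5* (AT1G57800) and *VIM6* (AT4G08590, also named *ORL1*), and they were taken by these identifiers from the 26925 genes listed for each of 2 stages. All 6 are listed at both stages. *VIM5* rose in the libraries labelled *vel3-1* at both stages, to 4.53 times the Col-0 mean in globular seeds and to 3.37 times in imbibed endosperm. *VIM3* also rose in globular seeds, a call that held in 8 of 15 alternative fits. *VIM2* rose in imbibed endosperm from a low level, and much of its transcript cannot be told from that of *VIM4*. *VIM6* in imbibed endosperm lay at the same mean level in both genotypes.

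VIM proteins are the plant counterparts of mammalian UHRF1. Their SRA domain binds cytosines that are methylated in a CG context, and their RING domains attach ubiquitin, which together help the methyltransferase MET1 to copy CG methylation onto newly replicated DNA. *VIM1*, *VIM2* and *VIM3* act redundantly in this task in Arabidopsis. *VIM5* is known as a paternally expressed imprinted gene of the endosperm, the seed tissue that nourishes the embryo. The deposited values are totals per gene and hold no parental alleles.

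The study compared wild-type Col-0 with *vel3-1*, a T-DNA insertion allele of *VEL3* in the Col-0 background, and *VEL3* encodes a member of the VIN3 family, which is linked to Polycomb repressive complex 2 (PRC2), which places the repressive mark H3K27me3. Globular-stage seeds (day 8 in the labels) came from plants at 16 °C, with the seeds of 3 to 5 siliques pooled per replicate. Endosperm-enriched tissue was taken 24 h after the start of imbibition (24HAI). Both stages have 3 libraries of Col-0 and 3 labelled *vel3-1*, so 12 of the 38 samples of the series carry values of these genes. The mature endosperm values list 640 genes, 0 of them *VIM* genes, and the ChIP-seq samples were not analysed here. Per the study's methods the 3 libraries of a group are biological replicates, each made from pooled plants, and p-values rest on the spread between them. In the main limma fit of globular seeds that spread was taken from genes of similar level, not from each gene itself. A globular seed holds embryo, endosperm and maternal seed coat, and in such bulk samples fewer cells of a type and less RNA per cell cannot be told apart.

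Values are TPM, a measure of transcript abundance corrected for gene length and library size, and the depth of a library is not known from them. The TPM listed summed to between 790391 and 892760 in the globular libraries and between 979241 and 982037 at 24HAI. The targeted gene went against the labels in globular seeds: *VEL3* was listed at 1.34, 1.99 and 2.23 TPM in Col-0 and at 9.79, 8.30 and 13.0 TPM in the other genotype, a log2 difference of 1.99 (SE 0.46, limma adjusted p = 0.000759). At 24HAI it was at 0 in all 3 Col-0 libraries and at 0, 0.077 and 0.16 TPM in the others. Gene totals do not show where such reads lie relative to the insertion, so each direction refers to libraries as labelled. Among the libraries labelled *vel3-1*, the globular one numbered 3 in its column heading (globular replicate 3) stands apart: over 4212 nuclear genes listed at 0 in every 24HAI library its median was 10.0 TPM, against 0.317 to 1.43 TPM in the other globular libraries. Markers of other seed tissues were read beside these values. In globular seeds 8 endosperm markers summed to 213 to 224 TPM in Col-0 and 201 to 242 TPM in the libraries labelled *vel3-1*. There *AGL62* (log2 difference 1.80, limma adjusted p = 0.0018) and *MINI3* (1.25, 0.00962) were called higher. Calls higher in this list became 0 with no filter, quantile normalization, no trend, the background subtracted or Col-0 replicate 1 left out. They became 1 under median-ratio scaling and without Col-0 replicate 2, Col-0 replicate 3 or replicate 1 labelled *vel3-1*. Of the same list *FIS2* (log2 difference -0.99, limma adjusted p = 0.00218), *ZOU* (-0.99, 0.0191) and *EPR1* (-0.93, 0.00041) were lower, short of the 2-fold minimum for a call. The 8 seed coat markers summed to 775 to 822 and 506 to 971 TPM, with 0 of 8 called, and the 10 embryo markers to 96.7 to 122 and 59.4 to 116 TPM, with *LEC1* lower. At 24HAI the endosperm markers summed to 16138 to 20113 TPM in Col-0 and 17909 to 20484 TPM in the others, nearly all of it *EPR1*. Of the 3 tested, *MAN7*, an endosperm mannanase gene, was called higher, at 34.3 and 92.5 TPM on average (1.58, SE 0.39, adjusted p = 0.0464). This call was lost with no filter, at a mean of at least 5 TPM, without the trend and with the replicate number as a block. It was also lost without Col-0 replicate 3 or any single library labelled *vel3-1*, and it held in the other alternatives. The seed coat markers summed to 10.0 to 14.5 and 14 to 15.9 TPM, and the embryo markers to 60.2 to 76.4 and 44.5 to 48.5 TPM, with *WOX8* at 0 in the Col-0 libraries and *IKU2*, an early endosperm gene, at 0 in all 6. The embryo marker *WOX2* was at 35.4 and 21.0 TPM on average (-0.72, SE 0.11, limma adjusted p = 0.00702), short of the 2-fold minimum. The other embryo markers tested, *WOX9* and *SCR*, did not pass the test. The part of this makeup in the results below was not tested.

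How far the 6 genes can be told apart by reads depends on their sequence, so the first 60 coding bases are shown for each, from the RefSeq annotation of TAIR10.1. Capitals mark bases that differ from *VIM2* when the sequences are set side by side without gaps. *VIM2* lies at chr1:24589534-24589593 on the plus strand, and the others on the minus strand at chr1:24586622-24586681 (*VIM4*), chr5:15840444-15840503 (*VIM3*), chr1:21417843-21417902 (*VIM1*), chr1:21412224-21412283 (*VIM5*) and chr4:5466576-5466635 (*VIM6*).
VIM2: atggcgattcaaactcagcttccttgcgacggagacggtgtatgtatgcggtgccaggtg
VIM4: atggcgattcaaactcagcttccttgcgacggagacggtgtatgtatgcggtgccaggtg
VIM3: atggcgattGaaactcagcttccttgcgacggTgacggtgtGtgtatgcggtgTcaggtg
VIM1: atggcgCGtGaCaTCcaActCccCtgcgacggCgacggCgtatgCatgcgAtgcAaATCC
VIM5: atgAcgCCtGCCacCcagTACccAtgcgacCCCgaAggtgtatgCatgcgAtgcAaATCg
VIM6: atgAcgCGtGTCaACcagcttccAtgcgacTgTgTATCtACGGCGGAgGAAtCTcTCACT

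*VIM4* has 0 differences from *VIM2* over these bases, *VIM3* 4, *VIM1* 18, *VIM5* 21 and *VIM6* 33. Over the whole coding sequence *VIM2* and *VIM4* are identical at 99.5% of 1869 aligned bases, and 55.7% of the 150-base windows of the *VIM2* transcript and 61.6% of those of *VIM4* occur in both. Their separate values are therefore uncertain, since reads from these windows fit either gene, and how such reads were counted is not given in the sources used here. *VIM3* is 95.9% identical to both but shares no 150-base window with any member. *VIM5* is closest to *VIM1*, at 83.4%, and shares 73.3% to 75.8% with the other members and no 150-base window.

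The positions repeat this grouping. *VIM5* (chromosome 1 from 21408623 to 21412283) and *VIM1* (21413981 to 21418115) are neighbours on the minus strand, 1697 bases apart. *VIM4* (chromosome 1 from 24583740 to 24586760, minus strand) and *VIM2* (24589343 to 24592780, plus strand) are 2582 bases apart and point away from each other. *VIM3* lies on chromosome 5 from 15837178 to 15840678 and *VIM6* on chromosome 4 from 5463794 to 5466747, both on the minus strand. *VIM6* overlaps AT4G08580 on the other strand by 114 bases, and the study's methods state that sense reads were counted.

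In globular seeds *VIM5* was at 7.42, 9.43 and 9.41 TPM in Col-0 and at 38.6, 41.4 and 39.1 TPM in the libraries labelled *vel3-1*. The groups lay far apart and the libraries labelled *vel3-1* were close to each other. The log2 difference, on the scale of log2(TPM + 1), was 2.07 (SE 0.21, limma adjusted p = 1.80e-19 over 26593 genes), and 0.854% of the genes tested had a larger one. *VIM5* and *VIM3* were the 2 members called higher, which takes an adjusted p below 0.05 together with a 2-fold difference or more, and 0 members were called lower. Over all genes tested 1.71% were called higher and 0.369% lower. All 3 libraries labelled *vel3-1* lay above all 3 of Col-0 for every member but *VIM1*, as they did for 20.0% of the genes tested, and the reverse held for 0 members and 3.97% of the genes. The median gene tested differed by 0.50 on the log2 scale, which fell to 0.10 under median-ratio scaling and to -0.02 under quantile normalization, so member differences near 0.5 are close to that of the median gene. The SE of this stage rest on the spread of genes of similar level, and without the trend of the variance limma called 0 of all genes, with 2034 at an unadjusted p under 0.05 and an adjusted p of 0.107 for *VIM5*.

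At 24HAI *VIM5* was at 7.19, 6.15 and 6.93 TPM in Col-0 and at 24.3, 21.3 and 22.8 TPM in the libraries labelled *vel3-1*, again with a wide gap between the groups. The log2 difference was 1.62 (SE 0.10, adjusted p = 0.000237 over 15918 genes), and 0.452% of the genes tested had a larger one. *VIM5* and *VIM2* were the 2 members called higher and 0 were called lower, beside 1.70% and 0.697% of all genes tested. The groups did not overlap for every member but *VIM6*, with the libraries labelled *vel3-1* above, as for 12.5% of the genes tested, and the reverse held for 0 members and 14.5% of the genes. The call of *VIM5* held in all 15 alternatives at 24HAI and in 14 of 15 in globular seeds, the exception being limma without the trend.

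**Figure D1:**
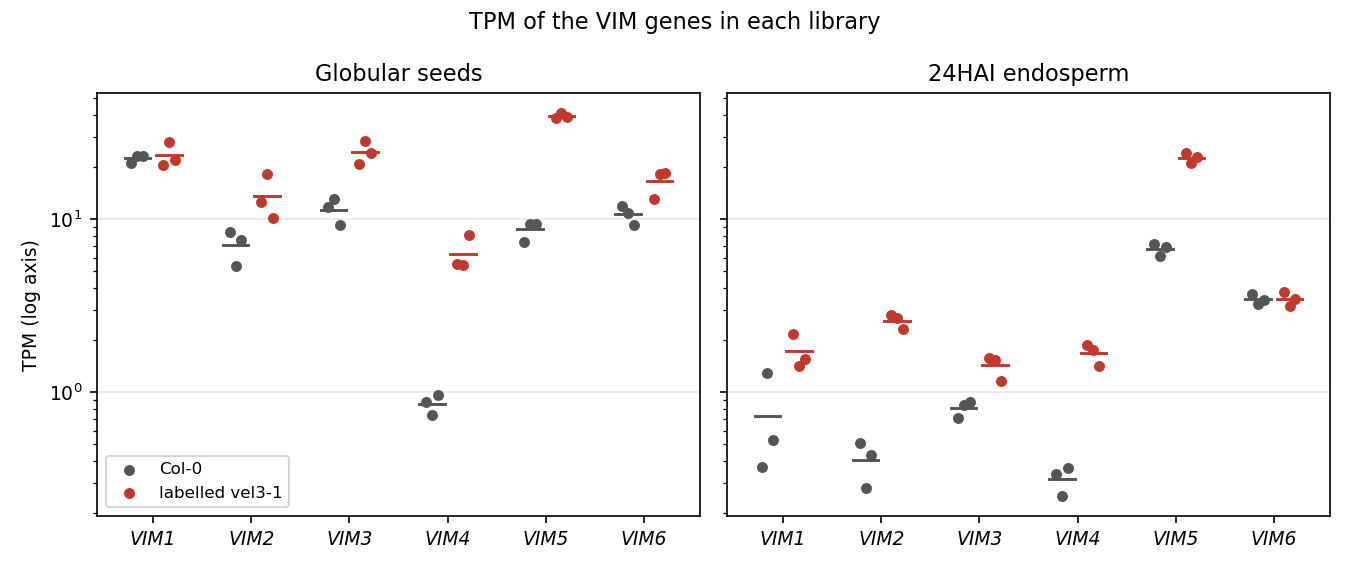
TPM of the 6 *VIM* genes (log axis) in globular seeds (left) and 24HAI endosperm (right), with 1 point per library and a bar at the mean of 3 libraries, Col-0 in grey and the libraries labelled *vel3-1* in red. *VIM5* moved from 7.42 to 9.43 TPM up to 38.6 to 41.4 TPM in globular seeds, while the *VIM1* groups overlapped there and the *VIM6* groups overlapped at 24HAI.

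*VIM1*, the most abundant member in Col-0 globular seeds and the direct neighbour of *VIM5*, was at 21.1, 23.4 and 23.2 TPM in Col-0 and at 20.5, 28.2 and 22.0 TPM in the libraries labelled *vel3-1*. The groups overlapped, and the log2 difference was 0.05 (SE 0.20, adjusted p = 0.876), with a negative sign under median-ratio scaling (-0.36), quantile normalization (-0.048) and background subtraction (-0.24). At 24HAI it was near the lower limit of the values, at 0.368, 1.30 and 0.528 TPM in Col-0 and at 2.19, 1.43 and 1.55 TPM in the others. The groups did not overlap, but the difference of 0.68 (SE 0.23) did not pass the test (adjusted p = 0.119).

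*VIM3*, which shares the maintenance role with *VIM1* and *VIM2*, rose in globular seeds from 11.8, 13.1 and 9.26 TPM to 20.9, 28.4 and 24.2 TPM. The log2 difference was 1.04 (SE 0.22, adjusted p = 0.000213). It lies just past the 2-fold minimum, and the call held in 8 of 15 alternatives. It was lost, among others, without Col-0 replicate 3 (0.91) and without replicate 2 labelled *vel3-1* (0.93), under median-ratio scaling (0.63) and with the background subtracted (0.82, adjusted p = 0.412). At 24HAI the values were 0.707, 0.848 and 0.882 TPM against 1.58, 1.55 and 1.17 TPM, with no overlap and a log2 difference of 0.42 (SE 0.15, adjusted p = 0.152).

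*VIM2*, the third of the redundant trio, was at 8.45, 5.39 and 7.61 TPM in Col-0 globular seeds and at 12.7, 18.2 and 10.2 TPM in the others. The groups did not overlap, yet the log2 difference of 0.84 (SE 0.29) did not pass the test (adjusted p = 0.0986). Without globular replicate 3 labelled *vel3-1* it passed (1.01, adjusted p = 0.0208), and with the background subtracted its sign turned (-0.23). At 24HAI *VIM2* rose from 0.512, 0.278 and 0.434 TPM to 2.79, 2.69 and 2.32 TPM, a log2 difference of 1.36 (SE 0.15, adjusted p = 0.00177). That call held in all 14 alternatives that tested it.

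*VIM4*, its near-copy, had the lowest level of the family in Col-0 globular seeds, at 0.884, 0.737 and 0.963 TPM, and stood at 5.53, 5.43 and 8.09 TPM in the libraries labelled *vel3-1*. This was the largest ratio of means among the 6 genes, 7.37, but the log2 difference of 1.96 (SE 0.65) did not pass the test (adjusted p = 0.0713). The SD that limma used for it, 0.80 on the log2 scale, came from genes of like level, while its own was 0.21. It passed without globular replicate 3 labelled *vel3-1* (1.80, adjusted p = 0.00269) and under median-ratio scaling (1.66, adjusted p = 0.000138), and was 0.52 under quantile normalization (adjusted p = 0.614) and 1.14 with the background subtracted (adjusted p = 0.713). At 24HAI *VIM4* was at 0.338, 0.25 and 0.365 TPM against 1.87, 1.75 and 1.42 TPM, and its mean of 0.998 TPM left it just under the minimum of 1 TPM for a test. With no such minimum it was called higher (1.02, adjusted p = 0.0176). At this stage *VIM1*, *VIM2* and *VIM3* passed that minimum only through the libraries labelled *vel3-1*, since their Col-0 means were 0.730, 0.408 and 0.812 TPM, and the same holds for *VIM4* in globular seeds.

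Because reads of *VIM2* and *VIM4* can be swapped, their TPM were also summed, a choice made after their shared sequence was seen. The sum was 8.01 ± 1.67 TPM (SD, n = 3) in Col-0 globular seeds and 20.1 ± 3.10 TPM in the others, a ratio of 2.50. At 24HAI it was 0.726 ± 0.173 and 4.28 ± 0.480 TPM, a ratio of 5.90. The groups did not overlap at either stage, with an exact two-sided permutation p of 0.1 in each, the smallest that 3 against 3 libraries can give. With the labels permuted within both stages together the exact p was 0.005, the smallest of 400 arrangements.

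*VIM6*, which has the shortest coding sequence of the family (1398 bases), was at 11.9, 10.9 and 9.24 TPM in Col-0 globular seeds and at 13.2, 18.2 and 18.6 TPM in the others. The groups did not overlap, but the log2 difference of 0.59 (SE 0.25) is close to that of the median gene and did not pass the test (adjusted p = 0.268). At 24HAI the values were 3.72, 3.24 and 3.41 TPM against 3.8, 3.15 and 3.47 TPM. The groups overlapped, and the difference was 0.01 (SE 0.12, adjusted p = 0.987), with a sign that turned under median-ratio scaling and quantile normalization.

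**Figure D2:**
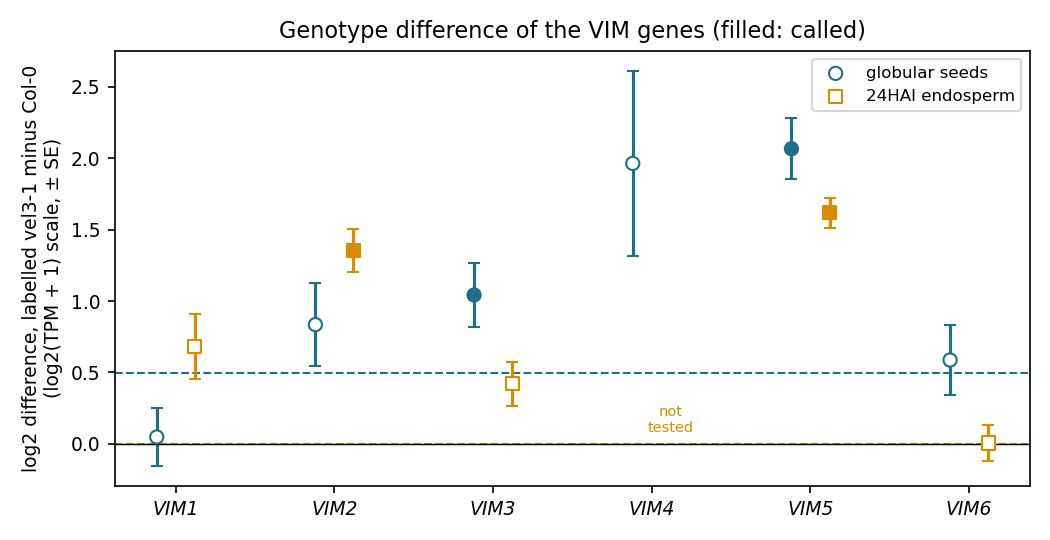
Log2 difference between the libraries labelled *vel3-1* and Col-0, with its SE, for each *VIM* gene in globular seeds (circles) and 24HAI endosperm (squares), where filled marks passed the test and dashed lines show the median of all genes tested. *VIM5* lies at 2.07 and 1.62, *VIM1* at 0.05 in globular seeds, and *VIM4* was not tested at 24HAI.

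The order of levels in the family differed between the genotypes. In Col-0 globular seeds it was *VIM1*, *VIM3*, *VIM6*, *VIM5*, *VIM2* and *VIM4*, where the ranges of *VIM3* and *VIM6*, of *VIM6* and *VIM5* and of *VIM5* and *VIM2* overlapped. In the libraries labelled *vel3-1* *VIM5* came first and did not overlap *VIM3*, the next. *VIM5* made up 12% to 15.8% of the summed TPM of the family in Col-0 globular libraries and 29.6% to 34.7% in the others. At 24HAI *VIM5* was first in both genotypes, at 51.0% to 56.0% of the sum in Col-0 and 66.5% to 69.7% in the others, followed by *VIM6* and then by members under 3 TPM. The family summed to 59.7 to 62.9 TPM in Col-0 globular seeds and 111 to 140 TPM in the others, and at 24HAI to 12.1 to 12.8 and 31.8 to 36.5 TPM. The stages were scaled in separate tables, so these levels stand side by side without a test.

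Whether *VIM5* moved more than its paralogs was asked within each library, where a scaling factor cancels apart from the pseudocount. A background added to every gene does not cancel. In globular replicate 3 labelled *vel3-1* the median over genes at 0 in every 24HAI library was 10.0 TPM. There *VIM2* was at 10.2 TPM and *VIM4* at 8.09 TPM. On the scale of log2(TPM + 1), the *VIM5* to *VIM6* ratio was higher in the libraries labelled *vel3-1* by 1.48 in globular seeds and by 1.61 at 24HAI, and the *VIM5* to *VIM3* ratio by 1.02 and 1.20. The ratio to *VIM1* was higher by 2.02 and 0.94, and that to *VIM2* by 1.23 and 0.26. For these 4 paralogs the groups did not overlap at either stage, and the exact two-sided permutation p with both stages joined was 0.005, the smallest possible, or 0.00625 after Benjamini-Hochberg adjustment over the 5 ratios. The ratio to *VIM4* was higher by 0.10 and 0.60, with an exact permutation p of 0.04 (adjusted 0.04).

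The comparison with *VIM4* and *VIM2* depended on the pseudocount. Col-0 values lay below 1 TPM for *VIM4* at both stages and for *VIM2* at 24HAI. So did the Col-0 means of *VIM1* and *VIM3* at 24HAI. With a pseudocount of 0.1 the joint difference turned to -0.45 for *VIM4* (exact permutation p = 0.005) and shrank to 0.28 for *VIM2* (p = 0.45), while it stayed at 1.04 for *VIM3* and 1.64 for *VIM6* (both 0.005) and at 1.30 for *VIM1* (0.035). On the plain TPM scale *VIM5* was 8.39 to 12.8 times *VIM4* in Col-0 globular seeds and 4.83 to 7.62 times in the others, and 19.0 to 24.6 and 12.2 to 16.1 times at 24HAI, lower in the libraries labelled *vel3-1* at both stages. The plain ratio to *VIM2* was 0.878 to 1.75 and 2.27 to 3.82 in globular seeds but 14 to 22.1 and 7.91 to 9.82 at 24HAI, so its direction differed between the stages. The plain ratio to *VIM1* at 24HAI overlapped, at 4.74 to 19.5 and 11.1 to 14.9. Only the ratios to *VIM3* and *VIM6* were higher without overlap at both stages on the plain scale and with either pseudocount. Against the sum of *VIM2* and *VIM4*, the log2(TPM + 1) ratio of *VIM5* differed by 0.83 in globular seeds and 0.00 at 24HAI (joint exact permutation p = 0.05). With a pseudocount of 0.1 it differed by 0.85 and -0.68 (joint difference 0.08, exact permutation p = 0.79). The plain ratio to the sum was 0.795 to 1.54 in Col-0 globular seeds and 1.75 to 2.13 in the others. At 24HAI it was 8.46 to 11.6 in Col-0 and 4.79 to 6.10 in the others, so its direction differed between the stages.

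**Figure D3:**
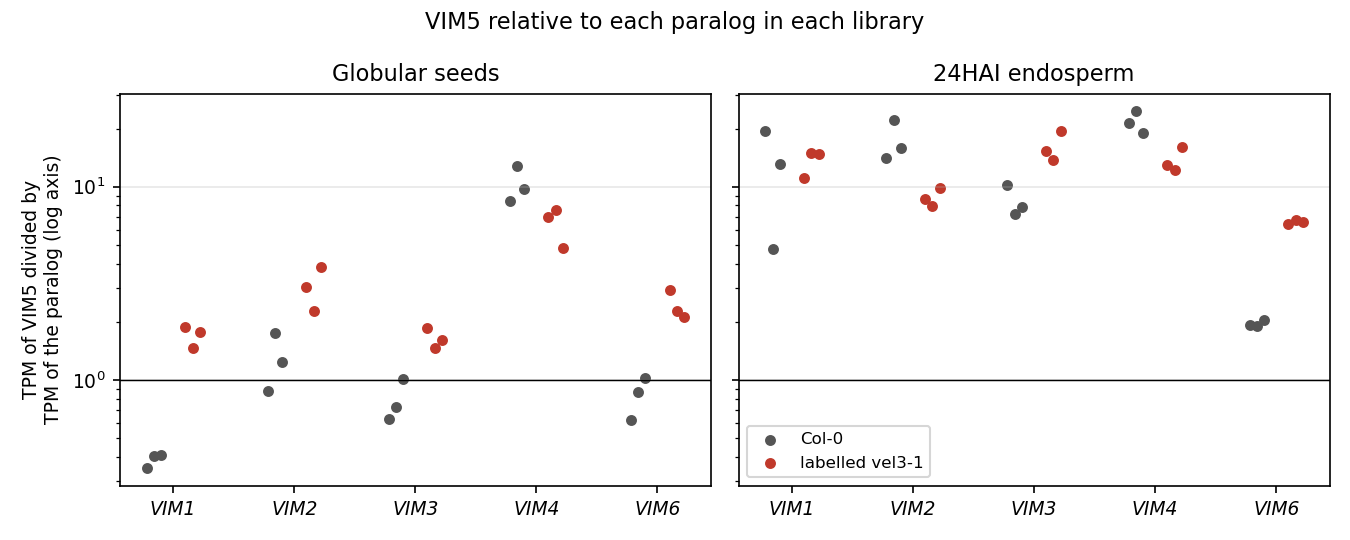
TPM of *VIM5* divided by the TPM of each paralog in the same library (log axis, no pseudocount), 1 point per library, Col-0 in grey and the libraries labelled *vel3-1* in red. The ratio to *VIM6* went from 1.9 to 2.03 up to 6.38 to 6.74 at 24HAI, whereas the ratio to *VIM4* was lower in the libraries labelled *vel3-1* at both stages.

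The genotype difference of each member was compared between the stages by the interaction term of limma over 24350 genes. The difference in globular seeds minus that at 24HAI was 0.45 (SE 0.19) for *VIM5*, 0.94 (SE 0.40) for *VIM4*, 0.62 (SE 0.27) for *VIM3*, 0.58 (SE 0.25) for *VIM6*, -0.52 (SE 0.34) for *VIM2* and -0.63 (SE 0.31) for *VIM1*. The median over all genes was 0.42, near the values of *VIM5*, *VIM3* and *VIM6*. The adjusted p lay between 0.277 and 0.412, so 0 of 6 passed, beside 1.07% of all genes called higher and 0.550% lower (260 and 134 genes, or 451 and 487 under quantile normalization and 223 and 301 under median-ratio scaling). An unadjusted p under 0.05 was found for 4 of 6 members, beside 3880 of the 24350 genes. The genotype effect on no member, *VIM2* and *VIM3* included, is therefore shown to differ between the stages. Without globular replicate 3 labelled *vel3-1*, *VIM4* passed (0.78, adjusted p = 0.0329).

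The sequences before the genes were read for features that members share. In the 250 bases upstream of the annotated starts, the longest run common to *VIM2*, *VIM3* and *VIM4* has 12 bases, shown in capitals with its flanks. It is found on either strand in 5 of 26714 such windows, those of *VIM2*, *VIM3* and *VIM4* included. It begins 133 bases before the start of *VIM2* (chr1:24589165-24589241, plus strand), 95 before that of *VIM3* (chr5:15840742-15840818, minus strand) and 205 before that of *VIM4* (chr1:24586934-24587010, minus strand).
VIM2: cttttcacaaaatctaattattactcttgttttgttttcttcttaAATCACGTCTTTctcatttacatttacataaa
VIM3: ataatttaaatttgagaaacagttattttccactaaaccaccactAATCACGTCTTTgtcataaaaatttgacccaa
VIM4: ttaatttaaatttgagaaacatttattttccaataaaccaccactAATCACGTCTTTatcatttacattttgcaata

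The windows of *VIM3* and *VIM4*, on different chromosomes, were alike well beyond that run, at 94.3% of 140 aligned bases, and those of *VIM1*, *VIM5* and *VIM6* do not hold the run. None of the 6 windows holds an E2F word (TTTCCCGC, TTTGGCGC, TTTCGCGC or TTTGCCGC, in 1.41% of all windows), a telobox (AAACCCTA, 4.44%) or a word bound by the H3K27 demethylase REF6 (CTCTGCTC, CTCTGCTT, CTCTGTTC or CTCTGTTT, 5.70%), on either strand. The annotated start of *VIM5* is also the first base of its coding sequence, whereas those of the other members lie before theirs. The windows are therefore not at like positions, and these letters are a description of them.

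No gene around the 2 pairs on chromosome 1 passed the test at either stage. Of the 3 annotated genes on each side of a pair and those between its members, 9 are listed. In globular seeds limma called 0 of the 9 tested, with 0 at an unadjusted p under 0.05. The shares over all genes tested were 1.71% called higher, 0.369% called lower and 11.3% at an unadjusted p under 0.05. At 24HAI limma called 0 of the 3 tested, with 1 at an unadjusted p under 0.05, beside 1.70%, 0.697% and 21.8%. With so few neighbours tested, 0 calls are near these shares. On the side of *VIM5* away from *VIM1*, AT1G57790 was at 2.32 to 4.23 TPM in Col-0 globular seeds and 4.61 to 12 TPM in the others (log2 difference 0.79, SE 0.45, adjusted p = 0.508). AT1G66030, which lies beside *VIM4*, was at 0 to 0.915 and 0.0817 to 10.5 TPM (1.13, SE 1.16, adjusted p = 0.560), with its highest value in globular replicate 3 labelled *vel3-1*. At 24HAI 6 of the 9 were under the minimum for a test.

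**Figure D4:**
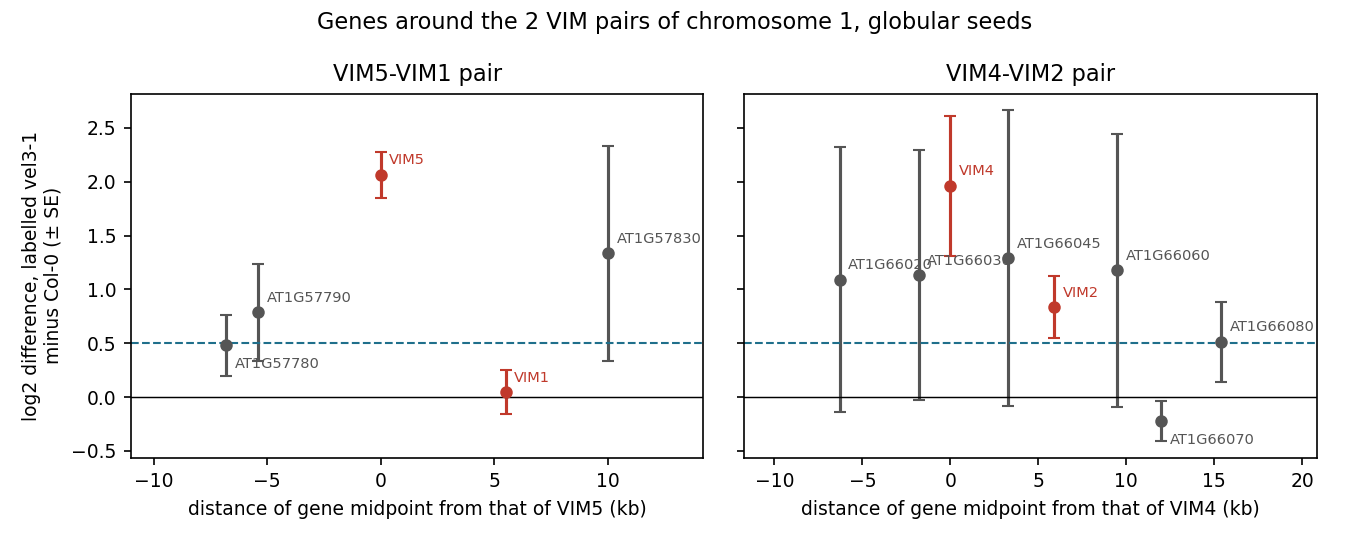
Log2 difference (with SE) in globular seeds of the listed genes around the *VIM5*-*VIM1* pair (left) and the *VIM4*-*VIM2* pair (right), against the distance of their midpoints from *VIM5* or *VIM4*, with members in red, other genes in grey and a dashed line at the median of all genes. *VIM5* stands at 2.07 beside *VIM1* at 0.05, and the other genes lie between -0.22 and 1.34, none past the test.

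Other genes linked to DNA methylation were read as a list of 13, which includes the methyltransferase *MET1* and the remodeller *DDM1*. The list also holds *CMT3*, *SUVH4*, *SUVH5* and *SUVH6*, so it is not limited to CG methylation. In globular seeds 2 of 13 were called higher and 0 lower, beside 1.71% and 0.369% of all genes tested. The median log2 difference was 0.18 beside 0.50 over all genes. Without globular replicate 3 labelled *vel3-1* the counts were also 2 and 0 (median 0.16 beside 0.14). Under median-ratio scaling the list median turned to -0.23, and the 2 calls became 1 with no filter or with the background subtracted and 0 without the trend. *MET1*, whose work the VIM proteins assist, was at 29.9, 32.3 and 30.9 TPM in Col-0 and at 36, 38.7 and 26 TPM in the others (log2 difference 0.09, SE 0.19, adjusted p = 0.736). The 2 that rose are its relatives *MET2A*, from 4.48, 4.83 and 5.06 to 15.7, 15.9 and 18.2 TPM (1.61, SE 0.30, adjusted p = 8.05e-06), and *MET2B*, from 2.37, 2.51 and 2.63 to 10.2, 8.99 and 15.7 TPM (1.81, SE 0.41, adjusted p = 0.000451). *DDM1*, a chromatin remodeller needed for methylation of heterochromatin, was at 14.1 ± 0.81 and 18 ± 1.97 TPM (SD, n = 3; adjusted p = 0.548). At 24HAI 0 of the 9 tested were called, beside 1.70% of all genes called higher and 0.697% lower. Of these 9, 1 had an unadjusted p under 0.05, beside 21.8% of all genes tested. *MET2A* and *MET2B* were under 0.1 TPM in every library of this stage.

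Since VIM proteins act on newly replicated DNA, 14 DNA replication genes were read as a second list. In globular seeds 0 of 14 were called, with 1 at an unadjusted p under 0.05 (beside 11.3% of all genes tested) and a median log2 difference of -0.08. At 24HAI 1 of 11 tested was called higher, 8 had an unadjusted p under 0.05, and all 11 differences were positive with a median of 0.87. Over all genes tested at this stage 1.70% were called higher, 21.8% had an unadjusted p under 0.05, 49.6% had a positive difference and the median was -0.002. Without Col-0 replicate 2 of this stage 6 were called, and with no filter 0. *TSO2*, a subunit of ribonucleotide reductase, which supplies deoxynucleotides, rose from 3.91, 8.43 and 5.11 to 22.0, 17.7 and 17.1 TPM (1.59, SE 0.22, adjusted p = 0.00464). *MCM5*, a subunit of the replicative helicase, was at 1.97, 3.62 and 2.94 against 7.15, 5.25 and 5.45 TPM (0.87, SE 0.19, adjusted p = 0.0285), under the 2-fold minimum, and *PCNA1*, a sliding clamp gene, at 0.505, 3.64 and 1.31 against 3.40, 2.01 and 2.39 TPM, which overlap.

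The libraries had the same order by *VIM1* as by the replication genes, a feature that was noticed after the values were seen. At 24HAI the 14 genes summed to 18.6, 46.9 and 28.5 TPM in Col-0, where *VIM1* was at 0.368, 1.30 and 0.528 TPM, and to 74.6, 59.6 and 62.9 TPM in the libraries labelled *vel3-1*, where it was at 2.19, 1.43 and 1.55 TPM. Within each group of 3 the libraries had the same order by both measures, and so they did in globular seeds, where the sums were 364, 391 and 375 TPM in Col-0, and in the others 331, 404 and 337 TPM. *VIM6* had the opposite order in the Col-0 libraries of 24HAI and the same order in those labelled *vel3-1*. The libraries share their scaling factors between the 2 measures, and no test was made.

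**Figure D5:**
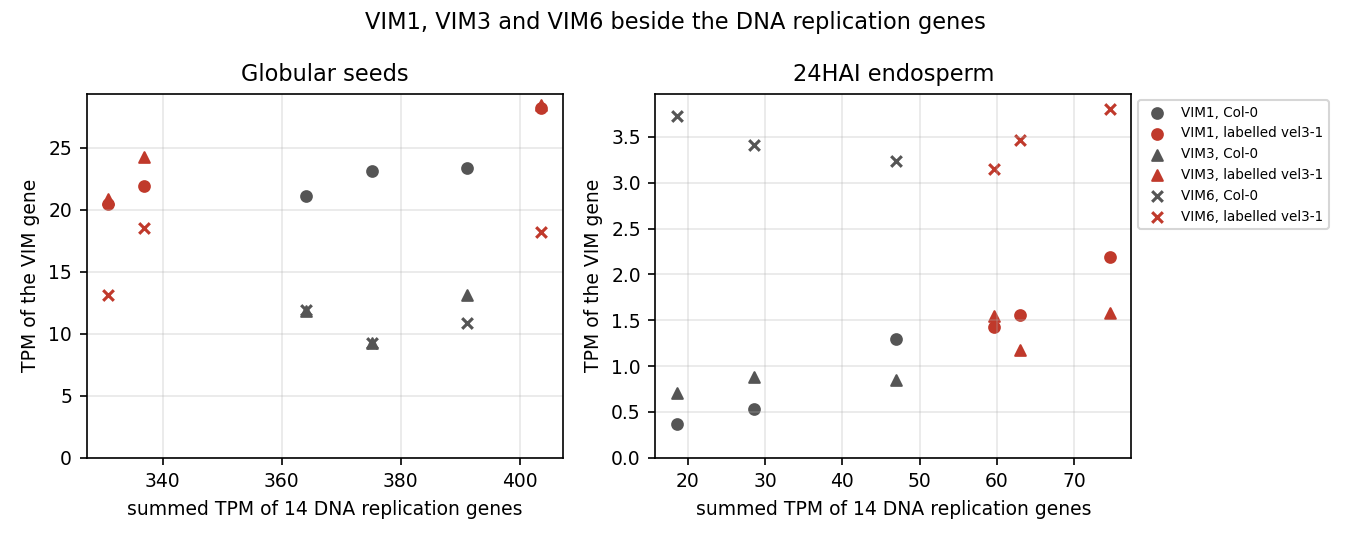
TPM of *VIM1* (circles), *VIM3* (triangles) and *VIM6* (crosses) against the summed TPM of 14 DNA replication genes in each library of globular seeds (left) and 24HAI endosperm (right), Col-0 in grey and the libraries labelled *vel3-1* in red. At 24HAI *VIM1* goes from 0.368 TPM at a sum of 18.6 TPM to 2.19 TPM at a sum of 74.6 TPM.

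The genes whose pattern was most like that of *VIM5* were sought among 15808 genes by the root mean square difference of log2(TPM + 1) over the 12 libraries, each gene centred on its own mean. The closest were AT1G05450 (0.30), *AGT3* (AT2G38400, an alanine:glyoxylate aminotransferase; 0.35), *ZIP2* (AT5G59520, of the zinc transporter family; 0.50), *PPC3* (AT3G14940, a phosphoenolpyruvate carboxylase; 0.50) and AT1G74010 (0.50), beside a median of 1.05 over all genes compared. AT1G05450 was at 1.74 and 13.4 TPM on average in globular seeds and at 1.80 and 8.34 TPM at 24HAI, called higher at both stages. *AGT3* was at 12 and 59.8 TPM and at 12.5 and 27.4 TPM, also called at both, though its call at 24HAI was lost in 5 of the 6 fits without a library. Among the paralogs *VIM4* had the smallest difference from *VIM5* (0.34), though it fell under the level required for this ranking, while *VIM6* (0.97), *VIM2* (0.99), *VIM3* (1.39) and *VIM1* (1.68) were farther away. Genes chosen this way follow the genotype and the stage by construction, so no test was made.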

How the data were processed

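The study's methods and the submitters' processing notes name cutadapt 1.9.1 for trimming, STAR 2.5 for mapping to TAIR10, featureCounts for sense reads and edgeR for the authors' own calls. The authors deposited TPM. How TPM were made from counts, and how reads that fit several genes were treated, is not given in the sources used here. Library depth was not known, so precision comes from the spread of 3 libraries per group. For globular seeds the main limma fit took it from genes of similar level and gave a gene's own spread no weight. The headings of the globular table show genotype and a number but spell no sample's label, so those libraries were placed by group and are called by that number.

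Genotypes were compared at each stage with limma 3.58.1 (R 4.3.3), using its variance trend, on log2(TPM + 1). Genes averaging 1 TPM or more were tested and p-values were adjusted over all of them (Benjamini-Hochberg). A call needed an adjusted p below 0.05 and, except for the interaction, a 2-fold difference. Ratios were compared by exact permutation of libraries. Sequences and positions are from RefSeq's TAIR10.1. In simulations with a log2 change of 2 given to 200 genes, limma called 186 of them and 4 others with the spread of globular seeds (26593 genes), and 190 and 2 others with that of 24HAI endosperm (15918 genes). For the interaction, simulated with the 24HAI spread at both stages over 15918 genes, it called 188 of 197 and 17 others. The changed genes were drawn only from those at about 5 TPM or more in Col-0, and values varied independently between genes and libraries. These counts therefore do not cover *VIM4* in globular seeds, *VIM1* to *VIM4* at 24HAI, or a library with raised values over genes near 0 elsewhere.

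Alternatives were a pseudocount of 0.1, no filter or a minimum of 5 TPM, scaling by median ratios, quantile normalization, organelle genes left out, no trend, any fold, a block for the replicate number, each library left out, and subtraction from each globular library of its median over genes listed at 0 in all 24HAI libraries. Summing *VIM2* and *VIM4* and list counts without globular replicate 3 labelled *vel3-1* were added after seeing the data. The members, gene lists, tests and alternatives were chosen with earlier results of these data known. Named genes are the members, *VEL3*, list genes past the threshold with *MET1*, *DDM1*, *PCNA1* and *MCM5*, and the 5 genes most like *VIM5*. *CMT3*, *SUVH4*, *SUVH5* and *SUVH6* are named only to describe their list. *MCM4*, the marker genes and the neighbours AT1G57790 and AT1G66030 were named after their values were seen. Python 3.11.15, numpy 2.4.6, Biopython 1.88 and matplotlib 3.10.9 were used.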

Additional observations from a re-analysis of the deposited data

Results flagged for a closer look

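Of the 14 replication and 13 DNA methylation genes listed, 5 passed the interaction test of limma (effect in globular seeds minus that at 24HAI, log2). Over all genes tested 1.07% were called higher and 0.550% lower, with a median difference of 0.42. For *TSO2* the difference was -1.76 (SE 0.30, adjusted p = 0.0108), for *MCM5* -1.12 (SE 0.25, adjusted p = 0.0436) and for *MCM4* -1.09 (SE 0.24, adjusted p = 0.0411). For *MET2A* it was 1.56 (SE 0.33, adjusted p = 0.0316) and for *MET2B* 1.83 (SE 0.41, adjusted p = 0.0454). Both are under 0.1 TPM in every 24HAI library, so these values mostly repeat their globular differences of 1.61 and 1.81. For these genes the test cannot show that the genotype effect differs between the stages. Over these 5 genes the call was kept in 51 and lost in 48 of 99 alternatives, with 0 changes of direction, and that of *TSO2* was kept in each of its alternatives.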

How the results depend on the processing

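TPM keep no depth, the globular SE rest on genes of like level, and 1 globular library labelled *vel3-1* has raised values over genes that are elsewhere near 0. In globular seeds the 2 members called became 1 with no filter, under quantile normalization and with the background subtracted, and 0 without the trend, and ranged from 1 to 4 with 1 library left out. The 552 genes called of all tested (454 higher, 98 lower) became 111 with no filter, 257 (193 higher, 64 lower) under quantile normalization, 0 without the trend, 856 with no fold minimum and 228 (154 higher, 74 lower) with the background subtracted, and ranged from 418 to 897 (without replicate 2 labelled *vel3-1*). At 24HAI the 2 members called became 1 at a mean of at least 5 TPM, and ranged from 2 to 3 with 1 library left out. The 382 genes became 197 with no filter, 204 at a mean of at least 5 TPM and 1209 with no fold minimum, and ranged from 245 (without replicate 1 labelled *vel3-1*) to 591 (without Col-0 replicate 2). For the interaction 0 members ranged from 0 to 1, and 394 genes became 260 (135 higher, 125 lower) with a pseudocount of 0.1 and 938 under quantile normalization, and ranged from 134 (without globular Col-0 replicate 1) to 3764 (without globular replicate 2 labelled *vel3-1*). The cause was not tested, apart from the smaller number of genes tested at a mean of at least 5 TPM.

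The joint difference in the *VIM5* to *VIM4* ratio was -0.45 with a pseudocount of 0.1 and 0.29 under median-ratio scaling (exact permutation p = 0.1). It ranged from 0.29 to 0.44 with 1 library left out, and passed the threshold there only without globular Col-0 replicate 2 or without globular replicate 3 labelled *vel3-1*. That of *VIM2* was 0.28 with a pseudocount of 0.1. The *VIM1* difference in globular seeds turned to -0.36 under median-ratio scaling, -0.048 under quantile normalization and -0.24 with the background subtracted, and ranged from -0.083 to 0.14 with 1 library left out. *VIM2* turned to -0.23 with the background subtracted. *VIM6* at 24HAI turned to -0.0087 under median-ratio scaling and -0.0024 under quantile normalization, and ranged from -0.047 to 0.058. *MET1* in globular seeds turned to -0.32 under median-ratio scaling and -0.13 with the background subtracted and ranged from -0.017 to 0.26, and *DDM1* to -0.081 under median-ratio scaling. At 24HAI the replicate numbers did not pair the libraries (correlations of same-numbered deviations of -0.39, 0.022 and 0.22), and the fit with the replicate number as a block called 2 members and 362 genes. The block was not run for globular seeds or the interaction, because the globular column headings do not name single samples.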
